A study of Mus musculus with 6 samples.

Results

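The genes described here encode the proteasome: the 20S core particle, the caps that open it, and the chaperones that put it together. They were taken by name, as every gene whose mouse symbol starts with Psma, Psmb, Psmc, Psmd, Psme, Psmf or Psmg, with pseudogenes left out, which gave 50 genes of the 48005 gene entries in the count table. Of these, 49 had enough counts to be tested, among 16605 tested entries in all. The one that was not tested, Psmb11, the catalytic subunit of the thymus proteasome, had 0 counts in all 6 libraries, which, at 3 counts, allows up to 0.0159 to 0.0264 CPM depending on the library's depth (counting error only). Of the members, 4 (Psmd1, Psmb5, Psmg3 and Psme2b) are counted in entries joined with an overlapping gene. Within the 49, 5 genes that are known to be induced by interferon gamma (Psmb8, Psmb9, Psmb10, Psme1 and Psme2) are set against 31 constitutive subunits of the 26S particle.

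RNA of cultured mouse microglia, the resident macrophages of the brain, was sequenced after polyA selection in 2 groups of 3 libraries, each with replicates A, B and C. The EV-treated group received extracellular vesicles, small membrane-bound particles that cells shed, which were collected by serial centrifugation from primary neural stem cells of the subventricular zone, and the control group received the control treatment. All samples are of the outbred CD1 strain, and no genetic change is named. The labels give no dose, duration, age or sex, do not say what the control treatment was, and do not say whether the letters stand for separate cultures, so the p-values rest on the spread between libraries alone, and that spread may be technical.

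The 20S core is a barrel of stacked rings. Its outer alpha rings form the gate and its inner beta rings hold the catalytic subunits, and the 19S cap recognises ubiquitylated proteins, unfolds them with its ring of ATPases and feeds them into the barrel. In cells exposed to interferon gamma the catalytic subunits Psmb5, Psmb6 and Psmb7 can be replaced by Psmb8, Psmb9 and Psmb10, which gives the immunoproteasome, and the PA28 cap built of Psme1 and Psme2 can take the place of a 19S cap. In microglia, as in other macrophages, this form is known for the peptides it makes for MHC class I molecules.

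Promoter windows of 6 members are shown here because these genes are either in the induced list or have one of the largest changes described below. The sequences are RefSeq's, on GRCm38.p6, and run 5′ to 3′ on the gene's own strand from 250 bases before to 50 bases after the start site. The windows lie for Psmb8 at chr17:34197945-34198244 (plus strand), Psmb9 at chr17:34187281-34187580 (minus strand), Psme1 at chr14:55578244-55578543 (plus strand), Psme2 at chr14:55590972-55591271 (minus strand), Psmb6 at chr11:70525107-70525406 (plus strand) and Psmd11 at chr11:80428365-80428664 (plus strand). Capitals mark matches, on either strand, to any of 4 motifs.
Psmb8: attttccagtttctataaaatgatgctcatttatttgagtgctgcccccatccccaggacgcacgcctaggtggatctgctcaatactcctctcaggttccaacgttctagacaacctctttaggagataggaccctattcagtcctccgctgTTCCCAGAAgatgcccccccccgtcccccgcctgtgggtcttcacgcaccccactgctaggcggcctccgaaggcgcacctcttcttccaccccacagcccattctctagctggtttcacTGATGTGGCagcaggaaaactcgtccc
Psmb9: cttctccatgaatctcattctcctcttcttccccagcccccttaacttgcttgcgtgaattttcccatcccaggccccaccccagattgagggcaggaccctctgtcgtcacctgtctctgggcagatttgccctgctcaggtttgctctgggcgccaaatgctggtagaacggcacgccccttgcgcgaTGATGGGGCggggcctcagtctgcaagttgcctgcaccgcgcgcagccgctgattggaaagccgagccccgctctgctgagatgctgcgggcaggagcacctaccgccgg
Psme1: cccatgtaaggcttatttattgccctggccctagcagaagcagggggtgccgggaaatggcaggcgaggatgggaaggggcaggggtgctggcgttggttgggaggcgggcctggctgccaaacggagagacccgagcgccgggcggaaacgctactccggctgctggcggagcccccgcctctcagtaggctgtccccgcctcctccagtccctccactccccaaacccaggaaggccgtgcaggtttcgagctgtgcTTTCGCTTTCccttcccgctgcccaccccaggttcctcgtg
Psme2: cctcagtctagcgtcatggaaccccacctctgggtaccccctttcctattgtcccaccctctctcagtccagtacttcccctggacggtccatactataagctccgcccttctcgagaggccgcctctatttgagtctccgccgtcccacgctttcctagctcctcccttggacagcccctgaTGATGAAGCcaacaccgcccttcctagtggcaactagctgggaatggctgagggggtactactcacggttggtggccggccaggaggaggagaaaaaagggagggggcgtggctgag
Psmb6: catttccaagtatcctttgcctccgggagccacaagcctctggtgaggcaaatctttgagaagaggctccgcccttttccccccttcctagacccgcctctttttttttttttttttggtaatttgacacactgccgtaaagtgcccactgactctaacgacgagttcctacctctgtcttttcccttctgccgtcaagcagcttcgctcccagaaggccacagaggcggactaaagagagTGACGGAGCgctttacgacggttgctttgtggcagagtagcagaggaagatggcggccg
Psmd11: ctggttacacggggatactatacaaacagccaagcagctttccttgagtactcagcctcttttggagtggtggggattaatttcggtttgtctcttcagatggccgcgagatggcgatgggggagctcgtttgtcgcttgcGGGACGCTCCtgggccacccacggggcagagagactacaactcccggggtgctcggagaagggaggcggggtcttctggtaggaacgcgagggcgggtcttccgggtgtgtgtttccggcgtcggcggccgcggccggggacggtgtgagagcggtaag

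The motifs were the interferon-stimulated response element, TTCNNNGAA, which is the gamma-activated site of interferon gamma signalling, a short form of the kappa B site, and TGANNNNGC, the core of the antioxidant response element through which Nrf1 and Nrf2 act on proteasome genes. No match overlapped another in these 6 windows. Psme1 had the interferon-stimulated element (TTTCGCTTTC, on the opposite strand) 9 bases after its start site, and Psmb8 had a gamma-activated site (TTCCCAGAA) whose first base is at -97 and an antioxidant core (TGATGTGGC) that begins 23 bases after the start. Psmb9, Psme2 and Psmb6 had the antioxidant core only, beginning at -60, -67 and -9, and Psmd11 had the kappa B form (GGGACGCTCC) only, at -109. The window of Psmb10 held 0 matches and is not shown. Over all 32851 windows of the same length, 3.44% held the interferon-stimulated element, 8.30% the gamma-activated site, 20.7% the kappa B form and 41.3% the antioxidant core. Windows were found for 42 of the 50 members, and they held these motifs in 5, 3, 11 and 24 genes, counted per gene and not per window. The interferon-stimulated element was in Psmb3, Psmd4, Psmd9, Psme1 and Psmg4, and the gamma-activated site in Psmb8, Psmd2 and Psmg1. Of these genes only Psme1 and Psmb8 are in the induced list. A match says only that these letters are present.

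The libraries held 109744701 to 162544804 counts, and log2 CPM (CPM being counts divided by the TMM-scaled library total, in the usual unit) correlated at 0.985 to 0.993 within groups and 0.870 to 0.878 between them across entries. Much of the transcriptome differed between the groups: 66.5% of tested entries passed edgeR's quasi-likelihood test at an adjusted p under 0.05, with 33.0% higher and 33.5% lower in EV-treated libraries. The labelled cell type's own markers differed between the groups. Csf1r and Itgam, which macrophages need or carry, stood at 884, 692 and 846 CPM and 909.7, 866 and 1006 CPM in EV-treated libraries, against 789, 736 and 801 CPM and 1016, 749.6 and 963 CPM in control libraries, while Cx3cr1, the fractalkine receptor of resting microglia, fell to 2.98, 1.76 and 2.65 CPM in EV-treated libraries, against 388, 226 and 394 CPM in control libraries. P2ry12, a purinergic receptor of resting microglia, was at 0.0565, 0.123 and 0.0859 CPM in EV-treated libraries, against 2.90, 3.34 and 5.06 CPM in control libraries. Of 10 microglia markers 7 fell and 0 rose, and their summed level was 3895 to 4085 CPM in EV-treated libraries and 6932 to 8813 CPM in control libraries. The summed markers of neural stem cells, the source of the vesicles, were 1.96 to 3.33 CPM in EV-treated and 45.8 to 82.4 CPM in control libraries, nearly all of it Nes. In EV-treated against control libraries, summed markers were 30.0 to 43.4 CPM against 212 to 439.8 CPM for the oligodendrocyte lineage, 28.0 to 32.9 CPM against 10.9 to 15.5 CPM for astrocytes, where Gfap was under 0.2 CPM in every library and most of the sum in EV-treated libraries was Gja1, 12.8 to 19 CPM against 13.6 to 36.4 CPM for fibroblasts and pericytes, and 3.26 to 5.36 CPM against 0.307 to 0.430 CPM for endothelium. Some of these sums joined markers that moved in opposite directions. Among astrocyte markers Aldh1l1 fell (log2 fold change -2.96), while Gja1 (8.21) and Slc1a3 (1.92) rose. Among fibroblast and pericyte markers Col1a1 fell (-1.28), while Dcn (5.51) and Pdgfrb (2.89) rose. In the oligodendrocyte lineage Mbp (-2.07) and Cspg4 (-3.58) fell, while Pdgfra (3.45) rose. Neuron and lymphocyte markers summed to under 0.5 CPM in every library. The log2 ratio of Y-linked to Xist counts was -4.86, -4.90 and -5.51 in EV-treated libraries A, B and C, against -1.35, -1.65 and -3.86 in control libraries A, B and C. This ratio follows the mix of male and female cells. The part of these differences in the proteasome values was not tested, apart from a fit with this ratio as a covariate. In bulk RNA, fewer cells of a type and less RNA per cell cannot be told apart.

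Of the 49 tested proteasome genes, 24 rose, 7 fell and 18 did not pass the test. The share that passed, 63.3%, is near the 66.5% of all entries. By direction, 49.0% of the members rose, against 33.0% of all entries, and 14.3% fell, against 33.5%. The EV-treated and control libraries did not overlap in CPM for 32 of the 49 members, compared with 71.3% of all entries. The median log2 fold change of the members was 0.38. That of all tested entries was -0.02, and it was -0.38 when libraries were scaled by their totals alone and -0.14 with upper-quartile scaling. With totals alone, 14 members rose and 12 fell, where 23.5% of all entries rose and 45.7% fell: the 14 are among the 24 above, the 7 that fell still did, and 5 uncalled genes (Psmc3, Psmd9, Psmb2, Psmb3 and Psmf1) became lower.

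**Figure D1:**
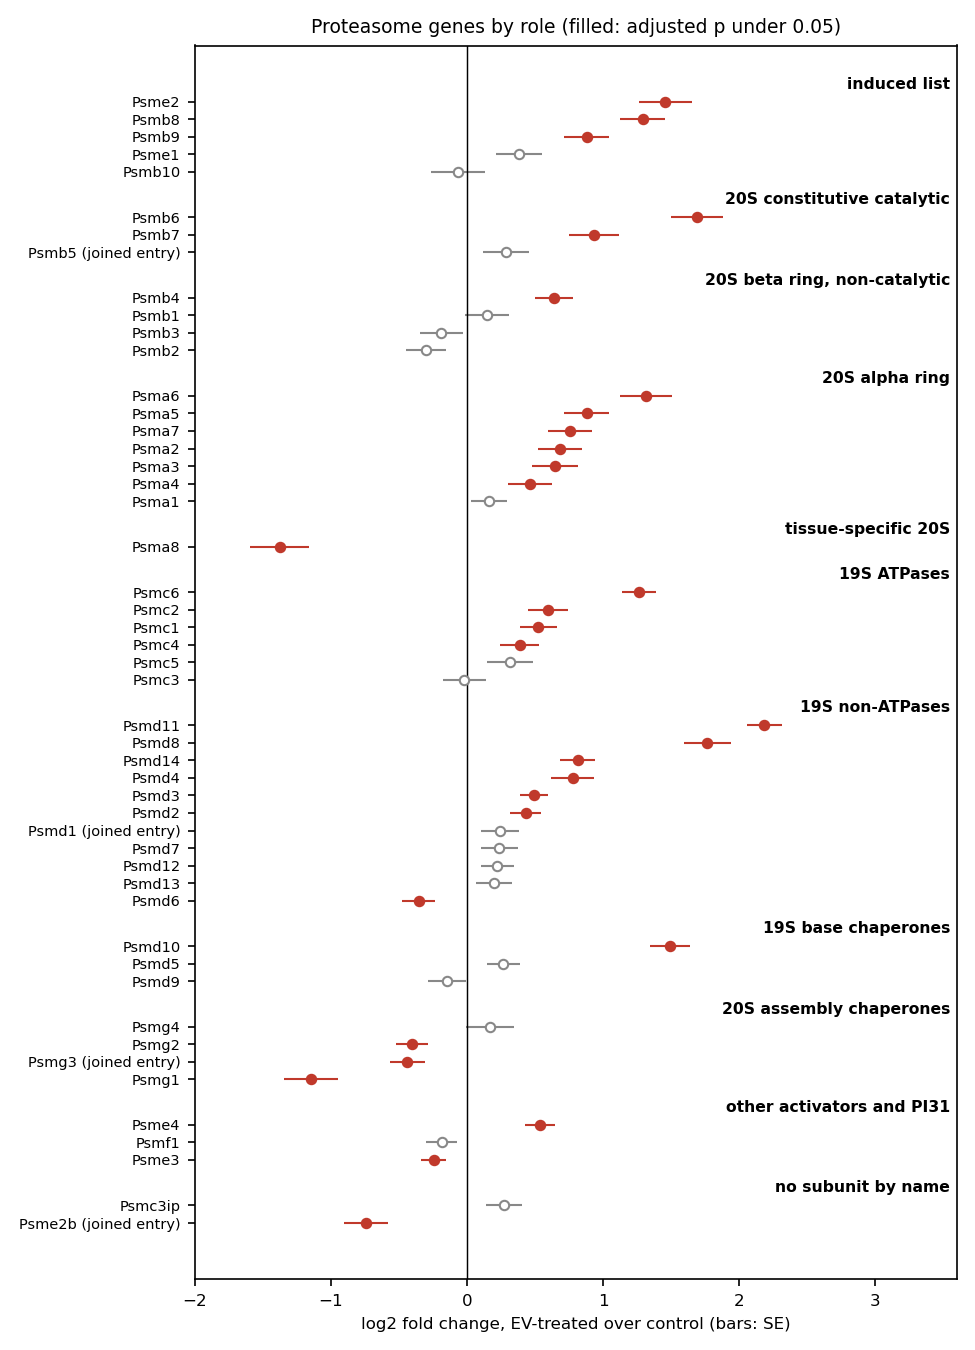
Log2 fold change of EV-treated over control libraries (x axis) for each of the 49 tested proteasome genes (y axis, grouped by role), with SE bars; filled red points passed the test, open grey points did not. Most alpha ring, ATPase and non-ATPase genes lie right of 0, 3 of the 4 assembly chaperones (Psmg1, Psmg2 and Psmg3) lie left of it, and the induced genes spread from -0.07 for Psmb10 to 1.46 for Psme2.

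Of the 5 induced genes, Psme2, Psmb8 and Psmb9 rose, and Psme1 and Psmb10 did not pass the test. Psmb8 (ENSMUSG00000024338, chr17:34197721-34201454, GRCm38, in the MHC region), the immunoproteasome's chymotrypsin-like subunit, had 211, 261 and 167 CPM in EV-treated libraries A, B and C, against 88.4, 96.6 and 76.4 CPM in control libraries A, B and C. Every EV-treated library was above every control library (log2 fold change 1.29 ± 0.17 (SE), adjusted p = 9.0e-05). Psmb9 (chr17:34181988-34187764), which replaces the caspase-like subunit and lies beside Psmb8 and Tap1, had 75.2, 89.0 and 62.6 CPM in the EV-treated libraries, against 43.0, 47.3 and 33.1 CPM in the control libraries. These groups did not overlap either (log2 fold change 0.88 ± 0.16 (SE), adjusted p = 0.00099). Psmb10 (chr8:105935735-105938444), which replaces the trypsin-like subunit, had 81.2, 112 and 61.9 CPM in the EV-treated libraries, against 85.8, 101 and 80.1 CPM in the control libraries. Its EV-treated libraries lay on both sides of the control libraries, with B highest and C lowest of all 6 (log2 fold change -0.07 ± 0.20 (SE), adjusted p = 0.78).

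The PA28 genes differed from each other. Psme2 (chr14:55587441-55591113), which encodes PA28 beta, had 609.6, 782 and 476 CPM in EV-treated libraries A, B and C, against 222, 268 and 191 CPM in control libraries A, B and C, with no overlap (log2 fold change 1.46 ± 0.19 (SE), adjusted p = 0.00011). Psme1 (chr14:55578123-55581529), which encodes PA28 alpha and lies near it on chromosome 14, had 301, 379 and 229 CPM in the EV-treated libraries, against 216, 253 and 229 CPM in the control libraries. EV-treated library C was level with the control libraries, and the difference did not pass the test (log2 fold change 0.38 ± 0.17 (SE), adjusted p = 0.076). Within a library, the log2 ratio of Psme2 to Psme1 counts per kb was 1.34, 1.37 and 1.38 in EV-treated libraries and 0.36, 0.41 and 0.06 in control libraries, a difference of 1.09 with no overlap (exact permutation p = 0.1, two-sided, the smallest that 3 against 3 can give). This ratio was chosen after the values were seen.

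**Figure D2:**
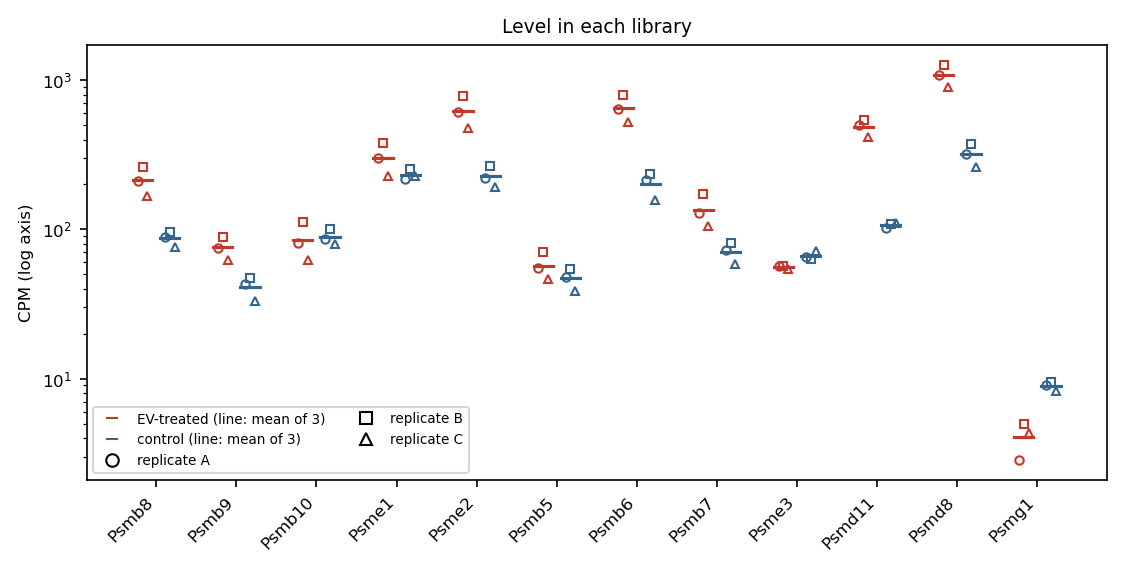
CPM on a log axis (y) of 12 proteasome genes (x) in each library, EV-treated in red to the left of control in blue; symbols mark replicates A, B and C and the line is the mean of 3. Psmb8, Psmb9, Psme2, Psmb6, Psmb7, Psmd11 and Psmd8 have all EV-treated points above all control points, Psme3 and Psmg1 have them below, and Psmb10, Psme1 and Psmb5 overlap.

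The constitutive catalytic subunits that the induced ones replace did not stay level. Psmb6 (chr11:70525367-70527858), the caspase-like subunit, had 642, 791 and 528 CPM in the EV-treated libraries, against 214, 237 and 158 CPM in the control libraries, the largest rise of any 20S core gene (log2 fold change 1.69 ± 0.19 (SE), adjusted p = 3.5e-05). Psmb7 (chr2:38588036-38644087), the trypsin-like subunit, had 129, 172 and 106 CPM in the EV-treated libraries, against 73.2, 80.6 and 58.7 CPM in the control libraries, again without overlap (log2 fold change 0.93 ± 0.18 (SE), adjusted p = 0.0014). Psmb5 (chr14:54614120-54617995), the chymotrypsin-like subunit, is counted in an entry joined with the microRNA gene Mir686 and had 55.2, 70.0 and 46.3 CPM in the EV-treated libraries, against 48.0, 53.8 and 38.7 CPM in the control libraries. Here the groups overlapped (log2 fold change 0.29 ± 0.17 (SE), adjusted p = 0.16), and over the bins of Psmb5 alone the log2 fold change was 0.25 (adjusted p = 0.21).

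The ratio of an induced subunit to its counterpart, taken within a library on counts per kb of summed exon bins, does not depend on how libraries are scaled against each other. It was higher in EV-treated libraries for Psmb8 and lower for Psmb9 and Psmb10. Psmb8 over Psmb5 had log2 ratios of 0.28, 0.25 and 0.20 in EV-treated libraries and -0.77, -0.81 and -0.67 in control libraries, a difference of 0.99. The genes have different numbers of bins and a read that spans bins may be counted in each, so these ratios do not show which gene of a pair was the more abundant. Over the bins of Psmb5 alone the difference was 1.03. For Psmb9 over Psmb6 the log2 ratios were -4.06, -4.12 and -4.04 in EV-treated libraries and -3.28, -3.29 and -3.22 in control libraries, a difference of -0.81 (Psmb6 had the larger log2 fold change). For Psmb10 over Psmb7 they were 0.34, 0.39 and 0.23 in EV-treated and 1.23, 1.33 and 1.45 in control libraries, a difference of -1.02.

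Psme3 (chr11:101316213-101323537), which encodes PA28 gamma, the nuclear relative of the PA28 genes that is not known for induction by interferon, had 57.2, 56.4 and 54.2 CPM in the EV-treated libraries, against 65.1, 62.8 and 71.1 CPM in the control libraries. The groups were close but did not overlap (log2 fold change -0.25 ± 0.09 (SE), adjusted p = 0.043), and leaving out any library other than control B ended that call. Against it, the log2 ratio of Psme1 was 2.81, 3.16 and 2.5 in EV-treated and 2.15, 2.42 and 2.10 in control libraries, a difference of 0.60, and that of Psme2 was 4.16, 4.53 and 3.88 in EV-treated and 2.51, 2.83 and 2.17 in control libraries, a difference of 1.69. The groups did not overlap in any of these 5 ratios, and each had an exact permutation p of 0.1 (two-sided), the smallest that 3 against 3 can give, and 0.1 after Benjamini-Hochberg adjustment over the 5.

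**Figure D3:**
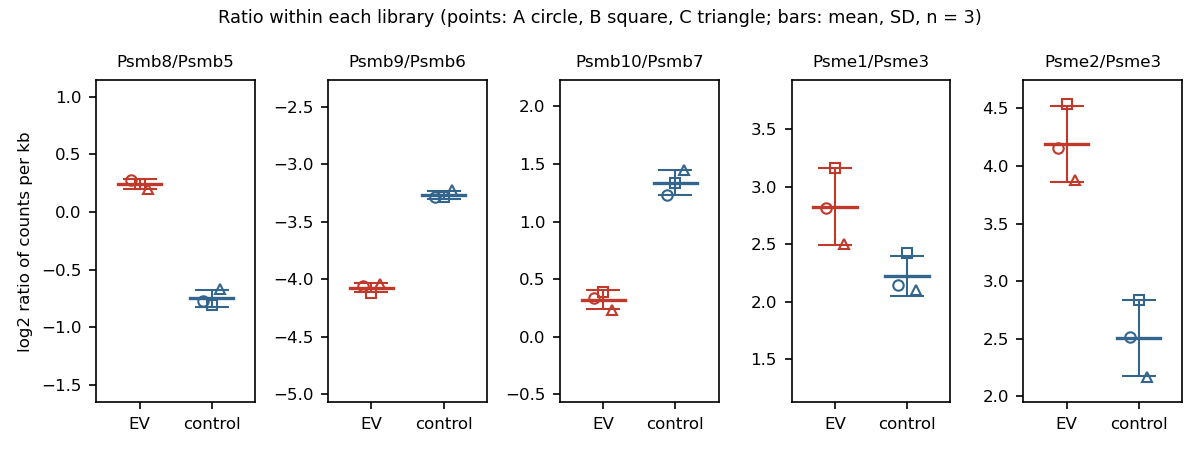
Log2 ratio of counts per kb (y axis, each panel spanning the same range) of 5 gene pairs within each library, EV-treated left of control; points are replicates A, B and C, bars the mean and SD of 3. The ratio Psmb8/Psmb5 is higher in EV-treated libraries by 0.99, Psmb9/Psmb6 and Psmb10/Psmb7 differ by -0.81 and -1.02, and both PA28 genes are higher relative to Psme3.

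Over the whole induced list the median log2 fold change was 0.88, against 0.49 for the 31 constitutive subunits. These medians lay 0.89 and 0.51 above the median of all tested entries. Scaling by totals alone shifts all entries nearly alike, so it could hardly change these distances. The mean log2 CPM of the 5 induced genes minus that of the 31 constitutive ones was 0.38, 0.52 and 0.34 in EV-treated libraries A, B and C, against 0.18, 0.30 and 0.17 in control libraries A, B and C. From the fit, the mean log2 fold change was 0.79 for the induced genes and 0.59 for the constitutive ones, a difference of 0.20. Of the constitutive subunits, 3 had a larger log2 fold change than Psme2, 4 a larger one than Psmb8 and 7 a larger one than Psmb9.

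Of the 31 constitutive 26S subunits 19 rose, 1 fell and 11 did not pass the test. With totals alone 10 rose and 4 fell. In the alpha ring, 6 of 7 genes rose, with a median log2 fold change of 0.68. Psma6 (chr12:55384222-55418454) rose most, with 191, 235 and 134 CPM in the EV-treated libraries, against 76.4, 82.9 and 65.8 CPM in the control libraries and no overlap (log2 fold change 1.31 ± 0.19 (SE), adjusted p = 0.0002). The others that rose were Psma5 (0.88), Psma7 (0.76), Psma2 (0.68), Psma3 (0.64) and Psma4 (0.46), the subunit whose tail helps to close the gate. The groups of Psma4 overlapped, and its call was lost when EV A, EV B, control A or control C was left out. Psma1 had a log2 fold change of 0.16 and did not pass the test. With totals alone Psma5, Psma6 and Psma7 kept their call, and Psma1 turned to -0.21.

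Of the 4 beta subunits without an active site 1 rose. Psmb4, which joins late in the assembly of the ring, rose by 0.64 on the log2 scale (178 ± 29.4 CPM in EV-treated libraries and 114 ± 11.6 CPM in control libraries (SD, n = 3 each); adjusted p = 0.0027), a call that was lost with library totals alone (adjusted p = 0.092). Psmb1, Psmb3 and Psmb2 had log2 fold changes of 0.15, -0.19 and -0.30 and did not pass. So within the 20S core the fold changes ran from -0.30 for Psmb2 to 1.69 for Psmb6, although the particle holds its subunits in equal numbers.

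Of the 6 ATPases of the 19S base 4 rose. Psmc6 rose most (142 ± 18.3 CPM in EV-treated libraries and 58.9 ± 4.93 CPM in control libraries (SD, n = 3 each); log2 fold change 1.26 ± 0.12 (SE), adjusted p = 1.4e-05). Psmc2 (0.60), Psmc1 (0.52) and Psmc4 (0.39) rose less, and the call of Psmc4 was lost when EV A, EV B, control A or control C was left out. Psmc5 (0.31) and Psmc3 (-0.02) did not pass the test. Psmc6 was the only ATPase whose call held with totals alone, where Psmc3 became lower (-0.39).

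Among the 11 non-ATPase subunits of the 19S cap 6 rose and 1 fell. Psmd11 (chr11:80428615-80473248), a scaffold subunit of the lid whose high level is known to raise proteasome activity in human embryonic stem cells, had 503, 538 and 416 CPM in EV-treated libraries A, B and C, against 101, 108 and 111 CPM in control libraries A, B and C. This was the largest change of any member in either direction (log2 fold change 2.19 ± 0.13 (SE), adjusted p = 4.0e-07), a 4.55-fold difference. Psmd8 (chr7:29174188-29180701), another lid subunit, had 1086, 1258 and 897 CPM in the EV-treated libraries, against 320.4, 371 and 261 CPM in the control libraries (log2 fold change 1.77 ± 0.17 (SE), adjusted p = 1.3e-05). In both genes the lowest EV-treated library was more than 2 times the highest control library.

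Psmd14, the lid's deubiquitylating enzyme, rose by 0.81 on the log2 scale (104 ± 15.5 CPM in EV-treated libraries and 59.1 ± 5.45 CPM in control libraries (SD, n = 3 each); adjusted p = 0.00041), and Psmd4, a ubiquitin receptor, by 0.78 (188 ± 36.3 CPM in EV-treated libraries and 110.1 ± 14 CPM in control libraries (SD, n = 3 each); adjusted p = 0.0018). Psmd3 (0.49) and the large base scaffold Psmd2 (0.43) rose too, though Psmd2 lost its call without EV A. With totals alone neither Psmd3 (0.12, adjusted p = 0.32) nor Psmd2 (0.06, adjusted p = 0.62) passed, while Psmd14 and Psmd4 still rose. Psmd6 fell, with 42.5, 48.3 and 35.4 CPM in the EV-treated libraries, against 52.7, 54.3 and 54.5 CPM in the control libraries: every EV-treated library was below every control library (log2 fold change -0.36 ± 0.12 (SE), adjusted p = 0.026), and the call was lost without EV A. It was also lost on the bin with most counts (-0.33, adjusted p = 0.062). Psmd1, in an entry joined with Armc9 and Gm21972, and Psmd7, Psmd12 and Psmd13 had log2 fold changes of 0.24, 0.24, 0.22 and 0.20 and did not pass the test.

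The chaperones went apart. Psmd10 (chrX:140948429-140956728), the base chaperone also known as gankyrin, had 63.1, 72.6 and 51.9 CPM in the EV-treated libraries, against 22.5, 24.9 and 19.5 CPM in the control libraries, with no overlap (log2 fold change 1.49 ± 0.15 (SE), adjusted p = 1.3e-05). The other base chaperones, Psmd5 and Psmd9, had log2 fold changes of 0.27 and -0.15 and did not pass. Of the 4 chaperones that assemble the 20S core, 3 fell and 0 rose. Psmg1 (chr16:95979933-95990960), which pairs with Psmg2 to build the alpha ring, had 2.84, 4.94 and 4.34 CPM in the EV-treated libraries, against 9.03, 9.51 and 8.26 CPM in the control libraries (log2 fold change -1.14 ± 0.20 (SE), adjusted p = 0.00062). Psmg2 had 8.89, 8.26 and 7.5 CPM in the EV-treated libraries, against 10.6, 10.9 and 11.1 CPM in the control libraries, a smaller difference, again without overlap (log2 fold change -0.40 ± 0.12 (SE), adjusted p = 0.013).

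Psmg3 is counted in an entry joined with Gm26938 and Tmem184a, which had 6.42, 6.44 and 6.43 CPM in the EV-treated libraries, against 9.12, 9.30 and 7.75 CPM in the control libraries (log2 fold change -0.44 ± 0.13 (SE), adjusted p = 0.012). Over the bins of Psmg3 alone the values were 2.43, 2.56 and 2.63 CPM in EV-treated and 5.27, 5.11 and 4.36 CPM in control libraries, a larger difference (log2 fold change -0.95, adjusted p = 0.00034). Its partner Psmg4 had 8.62, 10.6 and 8.01 CPM in the EV-treated libraries, against 8.56, 9.45 and 6.22 CPM in the control libraries, with overlap (log2 fold change 0.17 ± 0.18 (SE), adjusted p = 0.43). Psmg1, Psmg2 and Psmg3 also fell with totals alone, but that scaling lowers nearly all log2 fold changes, so it could hardly end a fall. On the bin with most counts Psmg2 had -0.18 and did not pass (adjusted p = 0.30). There Psmg1 (-0.88) and the joined entry of Psmg3 (-0.86) still fell. With the Y to Xist ratio as a covariate none of the 3 kept its call (adjusted p 0.056 to 0.58).

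Psme4, the gene of the PA200 activator, which is known for its part in histone breakdown, had 125, 124 and 117 CPM in the EV-treated libraries, against 81.2, 76.4 and 94.9 CPM in the control libraries, and rose (log2 fold change 0.53 ± 0.11 (SE), adjusted p = 0.0019). This call was lost with totals alone (0.17, adjusted p = 0.23) and on the bin with most counts (0.27, adjusted p = 0.060). Psmf1, which encodes PI31, named as an inhibitor of the 20S core in the test tube, had 29.6, 27.5 and 24.6 CPM in the EV-treated libraries, against 32.0, 33.1 and 27.8 CPM in the control libraries and did not pass the test (log2 fold change -0.19 ± 0.11 (SE), adjusted p = 0.18). Psma8, the alpha subunit of the testis proteasome, had the lowest level of the tested members. It was at 0.726, 0.923 and 1.12 CPM in EV-treated libraries, against 2.11, 2.53 and 2.56 CPM in control libraries (log2 fold change -1.38 ± 0.22 (SE), adjusted p = 0.00037).

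A pair of members carry a proteasome symbol without being a subunit listed above. Psmc3ip, a meiotic recombination cofactor, had 8.17, 8.18 and 6.64 CPM in the EV-treated libraries, against 6.5, 6.18 and 6.37 CPM in the control libraries and did not pass (log2 fold change 0.27 ± 0.13 (SE), adjusted p = 0.1). Psme2b, a copy of Psme2 on another chromosome, is in an entry joined with 9930111J21Rik1 that had 8.77, 12.4 and 8.41 CPM in the EV-treated libraries, against 16.7, 15.0 and 17.6 CPM in the control libraries, a fall (log2 fold change -0.74 ± 0.16 (SE), adjusted p = 0.0026). Over the bins of Psme2b alone the sign turned: 7.77, 11.1 and 6.91 CPM in EV-treated and 6.82, 7.08 and 6.78 CPM in control libraries (log2 fold change 0.32, adjusted p = 0.14). As reads of Psme2 and Psme2b may be shared between the copies, both values of Psme2b are uncertain.

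The members moved together between libraries of the same group. EV-treated library B was the highest of its group in 41 of the 49 tested members and EV-treated library C the lowest in 45, while over all tested entries these libraries were highest in 38.7% and lowest in 37.8%. In the control group library B was highest in 38 members and library C lowest in 33, against 32.8% and 35.6% of all entries. For the 31 constitutive subunits the median deviation from the group mean was 0.03, 0.26 and -0.28 on the log2 scale in EV-treated libraries A, B and C, against 0.02, 0.13 and -0.15 in control libraries A, B and C. Without EV-treated library C 30 members rose, and without EV-treated library A 21 did. Over all tested entries 5325 of 16947 rose in the first of these fits and 5062 of 17095 in the second. Of the 31 called members 26 kept their call whichever library was left out. The same share over all entries is not given here, so this count is not particular to the members.

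**Figure D4:**
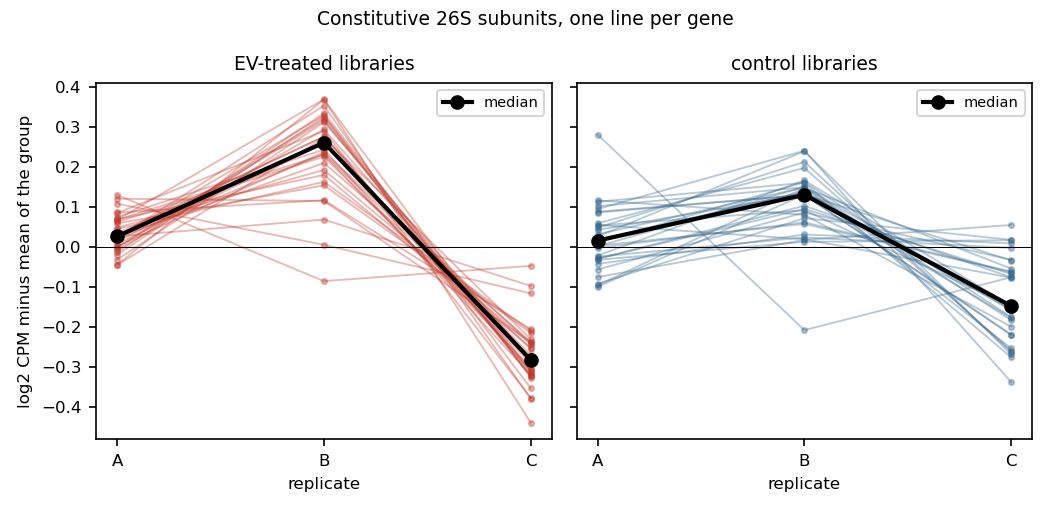
Log2 CPM minus the mean of the group (y axis) in replicates A, B and C (x axis, an unordered label) for the 31 constitutive subunits, EV-treated in the left panel and control in the right; each thin line is a gene and the black line the median. In EV-treated libraries the median is 0.26 for B and -0.28 for C, and in control libraries 0.13 for B and -0.15 for C.

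With the Y to Xist ratio as a covariate, 22 members rose and 1, Psma8, fell, where 21.7% and 22.1% of all entries did. The 6 other genes that had fallen and 4 that had risen (Psmc1, Psma3, Psma4 and Psme4) were no longer called, Psmb5 and Psmg4 rose, and the medians of the induced and constitutive lists were 1.47 and 0.83. As the ratio did not overlap between the groups, its part and that of the treatment cannot be fully told apart.

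Because the counts are given per exon bin, the change could be followed along a gene. Of 9 members with bins lying wholly 3′ of every annotated coding sequence and enough counts, 7 had a lower log2 ratio of these bins to coding bins in EV-treated than in control libraries, and in all 7 the groups did not overlap. Among the 2888 single-gene entries that could be measured in the same way, 67.2% had a lower ratio and 39.0% a lower one without overlap, with a median difference of -0.12, against -0.56 for the 9 members. No test was made of this difference. In Psmd11 the log2 ratio of 3′ to coding bins was -2.75, -2.85 and -2.59 in EV-treated libraries, against -2.25, -2.21 and -1.99 in control libraries. Its 26 coding bins had a median log2 change of 2.29, and among its 7 bins 3′ of the coding sequence the change was as low as 0.93.

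In Psme3 the fall lay mostly in 1 bin 3′ of the coding sequence. That bin had 11.4, 11.3 and 11.3 CPM in EV-treated libraries, against 18.2, 18.3 and 18.9 CPM in control libraries, a log2 change of -0.71, while its 13 coding bins had a median of -0.05. The log2 ratio differed by -1.01 in Psmf1, -0.62 in Psma3, -0.56 in Psmd5, -0.39 in Psmd9 and -0.38 in Psme4. It was 0.08 in Psmd8 and 0.31 in Psmc3ip.

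**Figure D5:**
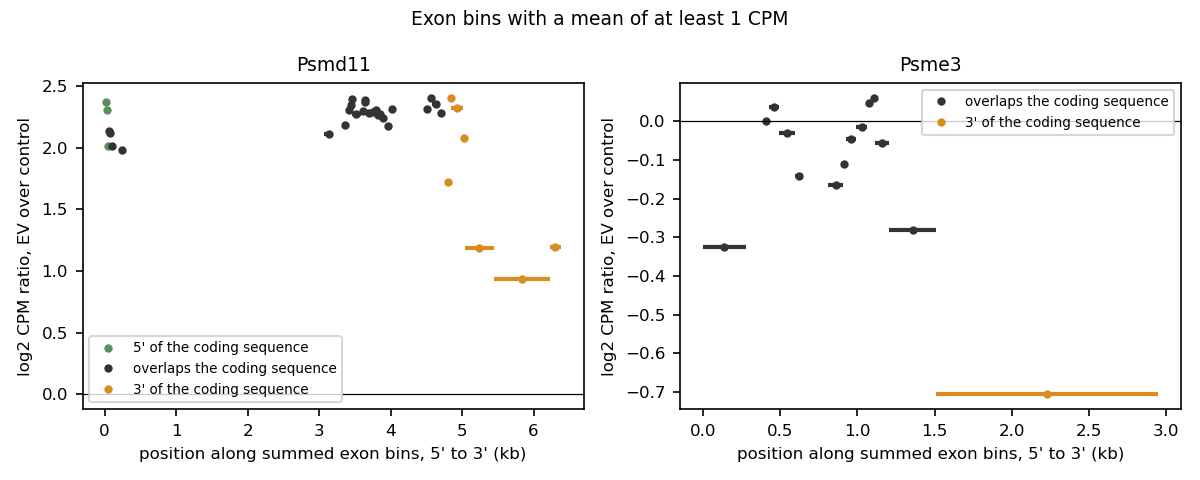
Log2 ratio of mean CPM, EV-treated over control (y axis), of exon bins with a mean of at least 1 CPM, by position along the gene's summed bins in kb, 5′ to 3′ (x axis); bar length is bin length and colour marks the place relative to the coding sequence. In Psmd11 the longest bins 3′ of the coding sequence lie near 1 while coding bins lie near 2.29, and in Psme3 that bin lies at -0.71 while coding bins centre on -0.05.

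Genes that work with the proteasome but carry other symbols were followed in 4 lists, to be read against the 33.0% of all entries that rose and the 33.5% that fell, or, with library totals alone, the 23.5% and the 45.7%. Of 13 tested components and regulators 8 rose and 1 fell, and with totals alone 3 rose and 3 fell. The share that passed, 69.2%, is near that of all entries, and Paaf1 was not matched to an entry. Ecpas, which tethers the caps to the core, had 552, 546 and 538 CPM in the EV-treated libraries, against 119.8, 113 and 143 CPM in the control libraries (log2 fold change 2.12 ± 0.12 (SE), adjusted p = 3.8e-07), and Txnl1, a thioredoxin bound to the 19S cap, had 173, 190.4 and 134 CPM in the EV-treated libraries, against 45.2, 47.8 and 46.8 CPM in the control libraries (log2 fold change 1.83 ± 0.14 (SE), adjusted p = 2.0e-06). In both genes every EV-treated library was above every control library. Zfand5, a zinc-finger activator of the proteasome, rose by 1.08 on the log2 scale, but on its bin with most counts the log2 fold change was 0.25 and did not pass (adjusted p = 0.065). Usp14, the cap's trimming deubiquitylase, fell (log2 fold change -0.32 ± 0.12 (SE), adjusted p = 0.041), and this call was lost when EV B, EV C, control B or control C was left out.

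Of 10 genes known to control subunit transcription 5 rose and 3 fell, and with totals alone 3 rose and 4 fell. With totals alone Nfe2l1 (adjusted p = 0.18) and Nfyc (adjusted p = 0.12) did not pass. Nfe2l1, the gene of Nrf1, rose by 0.55 on the log2 scale, and Ngly1, which processes Nrf1, by 0.67. Ddi2, the protease that cleaves Nrf1, is in an entry joined with Rsc1a1 and had 69.4, 61.7 and 77.5 CPM in the EV-treated libraries, against 138, 110.3 and 144 CPM in the control libraries, a fall (log2 fold change -0.91 ± 0.13 (SE), adjusted p = 0.00021). Nfe2l2, the gene of Nrf2, had 90.4, 91.5 and 88.0 CPM in the EV-treated libraries, against 147, 171 and 184 CPM in the control libraries and fell too (log2 fold change -0.89 ± 0.11 (SE), adjusted p = 6.7e-05). Irf1 rose by 0.77 on the log2 scale. Of the subunits of the CCAAT factor NF-Y, Nfyb (0.71) and Nfyc (0.56) rose and Nfya (-0.66) fell. Irf8 and Nlrc5, the activator of MHC class I genes, had -0.19 and 0.16 and did not pass the test.

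Of 15 shuttle, segregase and ubiquitin genes 6 rose and 2 fell, a share called of 53.3%, and with totals alone 3 rose and 7 fell. Ubb, a polyubiquitin gene, had 986, 1169 and 819.5 CPM in the EV-treated libraries, against 439.9, 469 and 311 CPM in the control libraries (log2 fold change 1.29 ± 0.19 (SE), adjusted p = 0.00019). Faf1 (0.96) and Nploc4 (0.85), cofactors of the segregase Vcp, rose, while Vcp itself had -0.24 and did not pass, and the shuttle Ubqln2 (-0.71) and Ddi2, which this list holds too, fell.

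In the peptide-loading list, which takes up the products of the immunoproteasome, 9 of 11 genes rose and 0 fell, and with totals alone 6 rose and 0 fell. Tap1, a chain of the peptide transporter and neighbour of Psmb9, had 298, 270.3 and 262 CPM in the EV-treated libraries, against 68.9, 80.3 and 72.7 CPM in the control libraries (log2 fold change 1.90 ± 0.11 (SE), adjusted p = 4.1e-07). B2m, the light chain of MHC class I, had 4060.3, 4915 and 3605 CPM in the EV-treated libraries, against 1686, 1809 and 1539 CPM in the control libraries (log2 fold change 1.32 ± 0.15 (SE), adjusted p = 4.1e-05). In both, all EV-treated libraries lay above all control libraries. Tapbp, the bridge between transporter and class I chain, in an entry joined with Zbtb22, rose by 1.12 on the log2 scale and H2-K1 by 1.36. H2-D1 and Pdia3 had 0.51 and 0.24 and did not pass the test.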

How the data were processed

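PolyA-selected RNA of 6 samples of cultured microglia, 3 EV-treated and 3 control, was made into NEBNext Ultra libraries, per the labels' protocols. Trimmomatic 0.36, STAR, Subread, DESeq2 and GRCm38 are listed in the submitters' processing notes; no source used here gives the settings, the strand or the treatment of reads with several matches, so overlapping genes and near-identical copies cannot be told apart. The deposited values are raw counts per exon bin, per the file headers. Where exons of several genes overlap, the authors' identifiers are joined, in 1194 of 48005 entries and 4 of the 50 members. A read that spans bins may be counted in each.

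Counts were summed over each entry's bins, filtered with filterByExpr, scaled by TMM and tested with edgeR 4.0.16 (glmQLFTest, no covariate, Benjamini-Hochberg over 16605 entries, adjusted p under 0.05, two-sided). CPM use TMM library sizes. The common biological coefficient of variation was 0.174. In simulated counts for this comparison over 15709 genes edgeR recovered 88.0% of genes raised by 1 on the log2 scale, 90.0% lowered by 1, 98.0% raised by 2 and 100% lowered by 2, of 50 each. The other 15509 genes were left unchanged there, while 66.5% of entries passed in the real data. These shares may therefore not carry over. Ratios within a library used counts per kb of bin length plus a prior count of 0.5 and an exact permutation test. The bins 3′ of the coding sequence, the bins of joined members alone (both from GENCODE vM21) and the Psme2 to Psme1 ratio were added after seeing the data.

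The genes given with values in every library are the induced genes and their counterparts, the 4 highest and 4 lowest of the other called members, Psme4, Psmf1 and Psmg1 to Psmg4, with Psmd6 and Psmc3ip added after their values were seen; others are named by fold change within their role. From each further list up to 3 rising and 3 falling called genes of smallest p are named; which of them have values in every library was chosen after these were seen, and Nfe2l1, Ngly1, H2-K1 and the named genes that did not pass were picked after their values were seen. The members, lists and motifs were chosen with earlier results of these data known. A gene was left out of each of 2 lists and is not reported here. The fold changes and counts of calls were also computed with RLE, upper-quartile or total scaling, without the filter or with one of 50 counts in 3 libraries, DESeq2 1.42.0, limma-voom 3.58.1, a replicate block, each library left out, the bin with most counts, or the Y to Xist log ratio as a covariate.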

Additional observations from a re-analysis of the deposited data

How the results depend on the processing

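With limma-voom every tested member kept its direction and call. With library totals alone 14 members rose and 12 fell, and the medians of the induced and constitutive lists were 0.51 and 0.12. With the Y to Xist covariate 3599 of all entries rose and 3672 fell, 1 member fell, the medians were 1.47 and 0.83 and the difference of their means was 0.30. On the single bin with most counts 4 members fell, where 5235 of 15436 entries did. Psmd6 (log2 fold change -0.33, adjusted p = 0.062) and Psmg2 (-0.18, adjusted p = 0.30) did not pass there. Over the fits that leave out a library, 21 to 30 members rose and 5 to 7 fell. Of all tested entries 5062 to 5439 rose and 5128 to 5544 fell in these fits. The induced median was 0.72 to 0.98, the constitutive median 0.43 to 0.61, and the difference 0.14 to 0.24. The cause was not tested.

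Among the proteasome genes, sign changes were seen in genes that did not pass the test and in Psme2b. Of the further lists' called genes, Ufd1, Akirin2 and Rad23b had log2 fold changes of 0.26, 0.29 and 0.30, but -0.10, -0.08 and -0.07 with totals alone, and Ufd1 had -0.36 on its top bin (adjusted p = 0.02). With totals alone the log2 fold change was -0.061 for Psmc5, -0.11 for Psmd5, -0.12 for Psmd1, -0.15 for Psmd12, -0.17 for Psmd13, -0.14 for Psmd7, -0.21 for Psma1, -0.20 for Psmg4, -0.23 for Psmb1, -0.085 for Psmb5 and -0.099 for Psmc3ip. With the covariate it was 0.39 for Psmc3, 0.31 for Psmd9, 0.14 for Psmb2, 0.34 for Psmb3, 0.32 for Psmb10 and 0.12 for Psmf1. Psmc3 also had 0.0045 with RLE scaling, 0.0042 with the stricter filter, 0.0045 with DESeq2 and 0.097 on its top bin. Psme2b had 0.40 on its top bin and 0.32 over its own bins. Leaving out a library, Psmc3 ranged from -0.16 to 0.11, Psmb10 from -0.31 to 0.10, Psmg4 from -0.010 to 0.27 and Psmb1 from -0.024 to 0.28.

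Over all tested entries, libraries of the same letter deviated from their group means with correlations of 0.04, 0.17 and 0.21 for A, B and C. The labels do not say that letters pair samples, so no block was used in the main fit. The column headers carry different numbers for libraries that share a letter. In the proteasome genes B was most often highest and C most often lowest in both groups, so these correlations do not settle pairing for them. With the letter as a replicate block 28 members rose and 8 fell, and Psmc5, Psmd5, Psmb2, Psmb5 and Psme1 were added to the calls. Calls were added over all 16605 entries too: 5758 rose and 5851 fell with the block, against 5482 and 5555 without it.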
